A study of Mus musculus with 12 samples.

Results

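The genes of the mitochondrial genome were followed through 12 RNA sequencing libraries of mouse skeletal muscle. They were taken by 1 rule, a chromosome label of MT in the deposited count tables, and came to 28 of the 26570 genes in either table. They were 13 protein genes, both ribosomal RNA (rRNA) genes and 13 transfer RNA (tRNA) genes. The high-fat diet and chow table held 24 of them and the PCN and vehicle table all 28, and the names and positions of all 28 matched GENCODE M21 on build GRCm38. The other mitochondrial tRNA genes were not analysed here.

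All mice were C57BL/6N, entered the diets at 6 weeks of age and stayed on them for 18 weeks. The PCN group was fed the high-fat diet and given 50 mg/kg PCN (pregnenolone carbonitrile, a steroid that activates the pregnane X receptor in rodents) into the peritoneum, once daily on 4 days. The Vehicle group had the same diet and the same injections with 30% DMSO in corn oil alone. The HFD group had the high-fat diet and no injection recorded, and the Chow group had regular chow. Each group had 3 libraries, numbered 5, 11 and 27 in PCN, 15, 23 and 55 in Vehicle, 4, 30 and 38 in HFD, and 8, 17 and 19 in Chow. The labels do not say which muscle was taken, how much of it, or whether each library came from its own mouse, so p-values measure only the spread between these samples, which may be technical.

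The mitochondrial genome of mammals is a small circle that encodes core subunits of the respiratory chain and the ATP synthase, the rRNAs of the mitochondrial ribosome and the tRNAs that ribosome uses. Each strand is transcribed as a long precursor, and in the widely held punctuation model the tRNAs that lie between the longer genes are cut out to release the messenger RNAs and rRNAs. The proteins that copy, cut, stabilise and translate these RNAs are all made from nuclear genes. Skeletal muscle is rich in mitochondria, and slow oxidative fibres more so than most fast ones.

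Depth lay between 12770308 (Chow 8) and 19739226 counts (PCN 27) a library, of which 1537105 (HFD 4) to 3429979 (Vehicle 55) fell on mitochondrial genes. All 14 markers of skeletal muscle were present and together took between 110479 and 209759 CPM (counts per 1000000 counts of a library), so the tissue label held. Markers of slow fibres set some libraries apart. Over the 3 of 11 slow-fibre genes that both tables hold, the summed level was 17.9 to 141 CPM in PCN, 16.6 to 68.8 in Vehicle, 21.2 to 40.6 in HFD and 29.2 to 119 in Chow, with PCN 5, Vehicle 55, Chow 17 and Chow 19 the highest. Over the 10 analysed in the HFD and Chow table, Chow 17 and Chow 19 had 832 and 865 CPM, and the other 4 libraries 63.1 to 108 CPM. In bulk tissue, fewer cells of a type and less RNA per cell cannot be told apart.

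The genes fell into tiers that followed position rather than function. Levels here are CPM after TMM scaling of the 12 libraries over the genes in both tables, divided by gene length in kb where genes are compared with each other. Along the circle, mt-Co1 (MT:5328-6872, the catalytic subunit of cytochrome c oxidase) averaged 30411 CPM per kb over the 12 libraries. The next 6 protein genes averaged between 0.711 and 21.0 CPM per kb. The level then returned to 2874 CPM per kb at mt-Nd4 (MT:10167-11544), a complex I subunit. In counts, the low stretch of mt-Co2, mt-Atp8, mt-Atp6, mt-Co3, mt-Nd3 and mt-Nd4l (MT:7013-10173) held 1 to 421 per gene and library, and the other 7 protein genes 1504 to 1107703. The low genes belong to complexes I, IV and V, and proteins of the same complexes are encoded in both tiers, except those of complex V, whose genes all lie in the low stretch. The low stretch made up 0.0381% (HFD 38) to 0.0555% (Chow 17) of the protein gene counts.

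**Figure D1:**
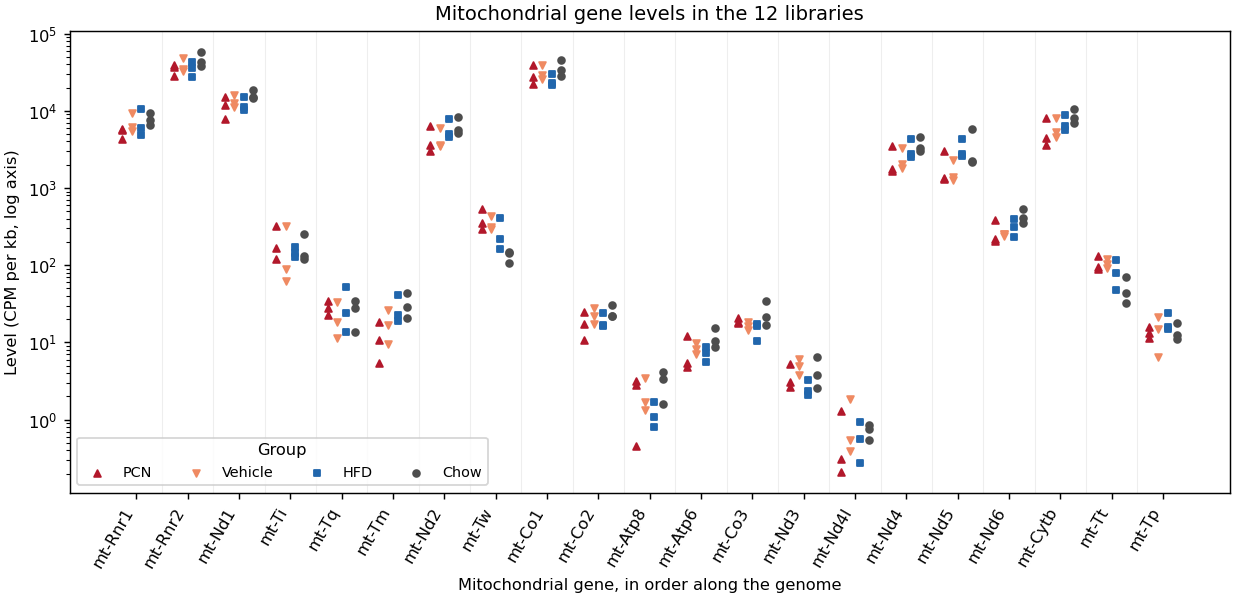
Level of each mitochondrial gene with counts in all 12 libraries, in CPM per kb on a log axis, with genes in order along the genome and 1 point per library, coloured by group. The run from mt-Co2 to mt-Nd4l lies far below the flanking mt-Co1 and mt-Nd4 in every library of all 4 groups.

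The genes did not peak in the same libraries. Chow 17 held the highest level of mt-Rnr2, mt-Nd1, mt-Co1 and 5 of the 6 genes of the low stretch, and Chow 19 that of mt-Nd2, mt-Nd4, mt-Nd5, mt-Nd6 and mt-Cytb. HFD 30 was highest for mt-Rnr1, whose counts were 14.6% of those of mt-Rnr2 there and 8.69% to 11.5% in the other 11 libraries. mt-Nd2, mt-Nd4 and mt-Cytb were lowest in PCN 27, at 3097, 2255 and 4176 CPM, and reached 8566, 6243 and 12070 CPM in Chow 19. The highest library was 2.1 times the lowest for mt-Co1 and 2.11 times for mt-Rnr2, but 4.51 times for mt-Nd5. By group, mt-Co1 averaged 45805 ± 13455 CPM in PCN, 48383 ± 10383 in Vehicle, 38191 ± 6631 in HFD and 55558 ± 12986 in Chow (SD, n = 3 each). mt-Nd5 averaged 3431 ± 1738 CPM in PCN, 3014 ± 1026 in Vehicle, 5901 ± 1778 in HFD and 6167 ± 3719 in Chow, and its spread within Chow exceeded every difference between these group means.

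Most of that low stretch has a second copy in the nucleus. On chromosome 1 of GRCm38, on the minus strand between 24611535 and 24616197, GENCODE M21 lists a run of 7 pseudogenes that match mitochondrial genes. Gm10925 matched mt-Atp6 over 678 bases, Gm28661 matched mt-Co2 over 681, Gm28437 matched mt-Co3 over 783 and Gm10222 matched mt-Nd4l over 294, all without a mismatch. Gm28439 matched the first 876 of the 1378 bases of mt-Nd4, also without a mismatch. Gm28438 differed from mt-Nd3 at 1 base (T3C, counted from the gene's first base), and Gm29216 from the last 483 bases of mt-Co1 at 1 base (A1066T). Only GENCODE M21 transcripts were searched, so a copy without an annotation was not looked for. mt-Atp8, inside the low stretch, is 204 bases long, so the minimum of 200 aligned bases left the search unable to say whether it has a copy. It shares its last 43 bases with mt-Atp6. Copies and partners did not stand in 1 ratio, with 79 to 231 counts per library for Gm10925 against 47 to 162 for mt-Atp6, and 61 to 165 for Gm28661 against 136 to 354 for mt-Co2, but 32 to 138 for Gm28439 against 37994 to 110243 for mt-Nd4. The labels do not say how reads that match both places were counted, and the part of the copies in the low counts was not tested. Fold changes of the low genes are therefore uncertain. For mt-Nd4 and mt-Co1 the same limit covers the 876 and 483 bases that match a copy, also where their levels and ratios are given below.

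The starts of mt-Co2 and mt-Nd3 beside their nuclear copies show how little separates them, with the substituted base in capitals (GRCm38, read 5′ to 3′ from the GENCODE M21 transcripts).
mt-Co2, MT:7013-7072, plus strand: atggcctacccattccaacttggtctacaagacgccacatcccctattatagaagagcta
Gm28661, chr1:24615506-24615565, minus strand: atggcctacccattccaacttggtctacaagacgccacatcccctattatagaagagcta
mt-Nd3, MT:9459-9518, plus strand: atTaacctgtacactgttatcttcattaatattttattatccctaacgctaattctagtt
Gm28438, chr1:24613060-24613119, minus strand: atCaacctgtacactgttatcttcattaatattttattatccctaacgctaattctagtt

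The junction of the ATP synthase genes is shown because the shared bases, in capitals, belong to both genes, so that a read there cannot be given to 1 of them.
mt-Atp8 end with mt-Atp6 start, MT:7917-7969, plus strand: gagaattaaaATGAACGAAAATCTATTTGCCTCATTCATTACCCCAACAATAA

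The copies on chromosome 1 were themselves low, with 1 exception. Gm28438, the copy of mt-Nd3, had 145.6, 66.6 and 95.1 CPM in PCN 5, 11 and 27 and 60.5, 77.9 and 186.6 CPM in Vehicle 15, 23 and 55. It had 35.3, 72.6 and 48.0 CPM in HFD 4, 30 and 38 and 17.1, 36.7 and 16.8 CPM in Chow 8, 17 and 19. The lowest values were in Chow, whose libraries come from another table than those of PCN and Vehicle, and HFD overlapped with each other group. mt-Nd3 itself had 10 to 39 counts per library, although the sequences are nearly the same.

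The fitted log2 fold change of Gm28438 was 1.16 ± 0.38 (SE) in HFD against Chow (edgeR adjusted p = 0.635), 1.06 ± 0.49 in Vehicle against HFD (adjusted p = 0.399), 0.98 ± 0.49 in PCN against HFD (adjusted p = 0.273) and -0.08 ± 0.47 in PCN against Vehicle (adjusted p = 0.998). No difference passed. Its partner mt-Nd3 was at -0.73 ± 0.42 in HFD against Chow, 0.97 ± 0.41 in Vehicle against HFD, 0.53 ± 0.42 in PCN against HFD and -0.44 ± 0.38 in PCN against Vehicle, so the pair was opposed in sign in the diet comparison alone. Gm28439, the copy of part of mt-Nd4, was at -1.06 ± 0.36 in Vehicle against HFD (adjusted p = 0.255) and -0.98 ± 0.36 in PCN against HFD (adjusted p = 0.126), with groups that did not overlap in either, as for 11.0% and 12.9% of all genes in that direction. Gm13340, a copy of mt-Co1 on chromosome 2 with 97.6% identity, was at -0.70 ± 0.24 in HFD against Chow (adjusted p = 0.635).

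In HFD against Chow, copies and their partners can be set side by side. Gm10925 was at -0.61 ± 0.22 beside -0.64 ± 0.25 for mt-Atp6, Gm28661 at -0.50 ± 0.23 beside -0.38 ± 0.19 for mt-Co2, and Gm28437 at -0.33 ± 0.21 beside -0.71 ± 0.28 for mt-Co3. Gm28439 was at -0.01 ± 0.33 beside -0.17 ± 0.24 for mt-Nd4. Gm10222, the copy of mt-Nd4l, which was not tested, was at 0.21 ± 0.41, and Gm29216, the copy of the end of mt-Co1, at -0.90 ± 0.52. Looser copies on chromosome 2 were Gm13339 of mt-Nd2 (-0.90 ± 0.36) and Gm13341 of mt-Co2 (-0.41 ± 0.38), and Gm4076 of mt-Nd5 on chromosome 13 did not pass the expression filter.

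**Figure D2:**
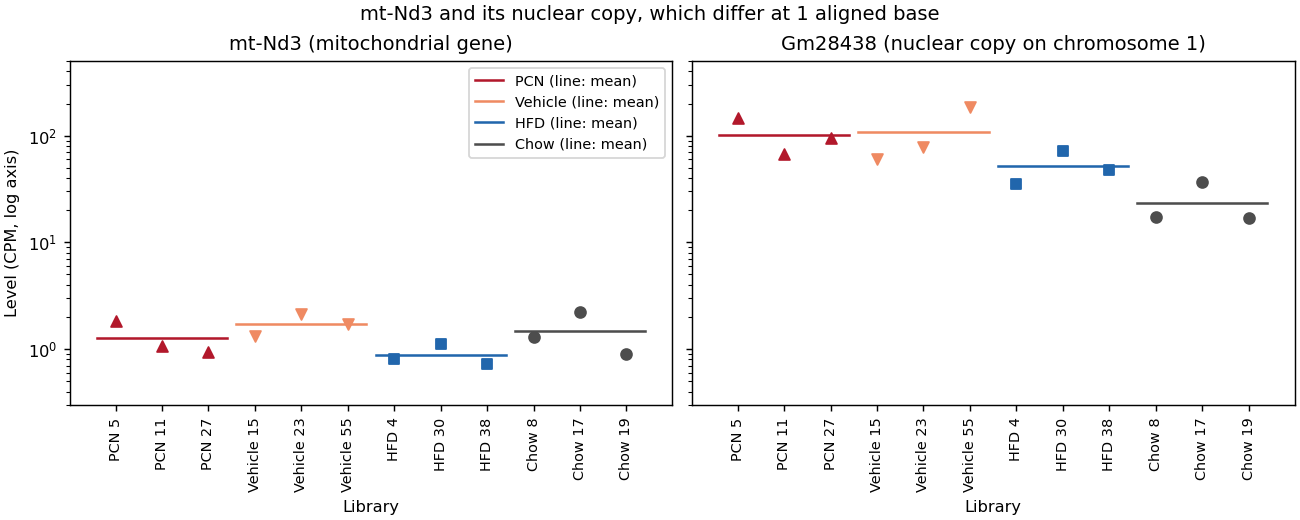
Level in CPM, on a log axis, of mt-Nd3 (left) and its chromosome 1 copy Gm28438 (right) in each of the 12 libraries, with a line at each group's mean. mt-Nd3 stays between 0.725 and 2.25 CPM, while Gm28438 lies between 16.8 and 186.6 CPM and is lowest in Chow.

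The diet comparison asks whether mitochondrial transcripts differ in muscle of mice fed the high-fat diet. Protein gene RNA took a smaller share of all counts in HFD than in Chow. The share was 5.42%, 8.25% and 7.12% in HFD 4, 30 and 38, against 8.52%, 10.8% and 8.95% in Chow 8, 17 and 19. On these library totals, without TMM scaling, the groups did not overlap. The mean was 6.928 ± 1.427% in HFD and 9.418 ± 1.199% in Chow (SD, n = 3 each), with p = 0.1 in an exact two-sided permutation test. That is the smallest p that 3 libraries against 3 allow, and over the 20 such tests of shares and ratios its adjusted p was 0.909. HFD 30 and Chow 8, the closest libraries of the groups, differed by less than the range within either group. The rRNA share was 5.78 ± 1.08% in HFD and 7.73 ± 1.76% in Chow (exact permutation p = 0.2, adjusted 0.909), with overlap. Without Chow 17 the difference was -0.975 percentage points, against -1.94 with it. Markers of red blood cells moved with the protein gene split, their 7 genes summing to 49.1 to 60.5 CPM in HFD and 70.2 to 136.1 CPM in Chow, without overlap, and their part in it was not tested. Binomial 95% intervals (Wilson) of single libraries were at most ± 0.0162 percentage points for the protein genes, and cover counting error only, since the libraries carry no molecular identifiers in the labels.

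Of the 24 members in the HFD and Chow table, 19 passed the expression filter, and none passed an adjusted p of 0.05 in edgeR's quasi-likelihood test with Benjamini-Hochberg adjustment over all 12686 genes tested (lowest adjusted p = 0.635). Over all genes the percentage called was 0.00%. At an unadjusted p under 0.05, 3 members were lower and 1 was higher, where all genes gave 3.92% and 3.78%. DESeq2 also called 0 of the 19, with 5 lower and 1 higher at an unadjusted p under 0.05, where the 24093 genes it took gave 1.94% and 1.81%. Those genes were not filtered by expression, while the 19 members had passed the filter, so these shares are not like for like. All 11 tested protein genes had fitted values below 0, as did 49.9% of all genes and all 78 tested nuclear genes of oxidative phosphorylation, whose median was -0.39. The median log2 fold change was -0.38 for those protein genes, -0.25 for the rRNAs and 0.34 for the 6 tested tRNAs, beside 0.00 for all genes tested. Without Chow 17 and Chow 19, a choice made after the data were seen that leaves Chow 8 to vary as the HFD libraries do, the protein gene median was -0.22. With the slow-fibre level as a covariate it was -0.09, and the median of all 19 tested members was 0.07, against -0.17 without it.

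Among the complex IV genes, mt-Co1 had 33196, 45715 and 35663 CPM in HFD 4, 30 and 38, against 52727, 69726 and 44221 CPM in Chow 8, 17 and 19. Chow 19 lay inside the HFD range. The fitted change was -0.52 ± 0.23 (SE, edgeR adjusted p = 0.644). mt-Co2, a subunit that takes electrons from cytochrome c, was at -0.38 ± 0.19, and mt-Co3 at -0.71 ± 0.28, both from the low stretch. The complex V gene mt-Atp6 was at -0.64 ± 0.25. Without Chow 17, mt-Co1 was at -0.34, mt-Co3 at -0.38 and mt-Atp6 at -0.40. For mt-Co3, 27.0 CPM in Chow 17 stood against 8.25 to 16.5 CPM in the other HFD and Chow libraries.

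The complex I genes covered a wide range. mt-Nd3, which has few counts, was at -0.73 ± 0.42, and at -0.30 without Chow 17. mt-Nd1 was at -0.38 ± 0.21, mt-Nd4 at -0.17 ± 0.24, mt-Nd2 at -0.11 ± 0.26 and mt-Nd5 at -0.05 ± 0.41. mt-Nd6, the only protein gene encoded on the light strand, was at -0.44 ± 0.22. mt-Cytb, the 1 mitochondrial subunit of complex III, was at -0.27 ± 0.24. With the slow-fibre level as a covariate, mt-Nd2, mt-Nd4, mt-Nd5 and mt-Cytb lay above 0, at 0.32, 0.20, 0.66 and 0.13, while mt-Atp6 and mt-Nd6 were near 0, at -0.087 and -0.011. None of these was past the threshold in either fit.

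mt-Nd5 shows why its error is wide. It had 4745, 7949 and 5010 CPM in HFD 4, 30 and 38, against 4066, 3974 and 10461 CPM in Chow 8, 17 and 19. Chow 19 was the highest of all 12 libraries and the other Chow libraries were below all 3 HFD libraries. Without Chow 19 the fitted value was 0.57. For mt-Co1 the order within Chow was different, with Chow 17 highest and Chow 19 lowest.

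The rRNAs, which form the small and large subunits of the mitochondrial ribosome, did not differ past the spread. mt-Rnr2 (MT:1094-2675), the large one, had 56025, 68615 and 42911 CPM in HFD 4, 30 and 38, against 68603, 90677 and 60526 CPM in Chow 8, 17 and 19, a fitted -0.38 ± 0.24. mt-Rnr1 (MT:70-1024) was at -0.12 ± 0.28, and HFD 30, at 10011 CPM, was its highest library of all 12. Counts of the rRNAs over those of the protein genes were 0.846 ± 0.144 in HFD and 0.816 ± 0.107 in Chow (SD, n = 3 each, exact permutation p = 0.9, adjusted 0.947).

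Of the 6 tested tRNA genes 4 were fitted above 0 and 2 below, where 49.9% of all genes lay below 0. The tested protein genes and rRNAs were all fitted below 0. mt-Tw, the tRNA for tryptophan between mt-Nd2 and mt-Ta, had 10.8, 27.4 and 14.7 CPM in HFD 4, 30 and 38, against 7.08, 9.94 and 9.74 CPM in Chow 8, 17 and 19. All 3 HFD libraries were above all 3 Chow libraries, as for 6.38% of all genes. The fitted change was 0.99 ± 0.33 (SE, edgeR adjusted p = 0.635), and without HFD 30, its highest library in these groups, it was 0.53. The authors' deposited table gives mt-Tw a log2 fold change of 0.65 ± 0.21 (adjusted p = 0.4126, by DESeq2). For all tested members the deposited diet fold changes lay nearer 0 than those of edgeR, so the values may not be like for like. mt-Tt, the tRNA for threonine after mt-Cytb, was at 0.73 ± 0.37, with Chow 17 inside the HFD range. mt-Tp was at 0.40 ± 0.38 and mt-Tq at 0.27 ± 0.50, while mt-Ti was at -0.17 ± 0.27 and mt-Tm at -0.17 ± 0.39. With no filter on low counts edgeR called mt-Tw (0.98, adjusted p = 8.8e-05) and mt-Co3 (-0.73, adjusted p = 0.00726), so both calls depend on that filter.

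The tRNA genes that carried most of these counts are given whole, in the gene's own 5′ to 3′ direction, with the anticodon in capitals, as they are the members that were highest among the tRNAs (GRCm38, GENCODE M21 transcripts). Each is short next to its neighbours, and mt-Tw and mt-Ti share their first bases with the end of mt-Nd2 and mt-Nd1, so reads from an uncut precursor and from the neighbouring gene cannot be told apart from reads of the tRNA.
mt-Tw, MT:4950-5016, plus strand: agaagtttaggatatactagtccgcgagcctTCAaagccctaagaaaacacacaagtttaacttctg
mt-Tt, MT:15289-15355, plus strand: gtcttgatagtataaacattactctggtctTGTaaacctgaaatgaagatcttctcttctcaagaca
mt-Ti, MT:3706-3774, plus strand: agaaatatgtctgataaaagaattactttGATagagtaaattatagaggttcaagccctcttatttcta

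Set against the protein gene counts of the same library, a ratio chosen after its values were seen, the summed tRNA gene counts separated the diets. There were 416.8, 604.7 and 506.2 tRNA gene counts per 1000000 mitochondrial protein gene counts in HFD 4, 30 and 38, and 253.7, 318.4 and 299.3 in Chow 8, 17 and 19. PCN had 669.0, 644.5 and 786.9 in libraries 5, 11 and 27, and Vehicle 568.4, 498.6 and 628.2 in libraries 15, 23 and 55. The ratio was lower in every Chow library than in any of the 9 libraries of mice on the high-fat diet, injected or not. The share of all genes that would stand apart in this way over the same denominator was not computed. mt-Tw gave 133, 392 and 263 of the 322, 800 and 616 tRNA gene counts in HFD 4, 30 and 38. It gave 87, 155 and 172 of the 276, 552 and 507 in Chow 8, 17 and 19. Of the 6 tested tRNA genes it alone did not overlap between the diets in CPM. The denominator, the protein gene share, was itself lower in HFD. Ratios of single tRNA genes were not compared. As a share of all counts the tRNA genes took 0.00362 ± 0.00137% in HFD and 0.00276 ± 0.000639% in Chow, with overlap (exact permutation p = 0.4, adjusted 0.909). The other 7 tRNA genes, mt-Ta, mt-Tc, mt-Te, mt-Tv, mt-Tl1, mt-Ty and mt-Tg, had 0 to 10 counts in any library and were not tested.

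**Figure D3:**
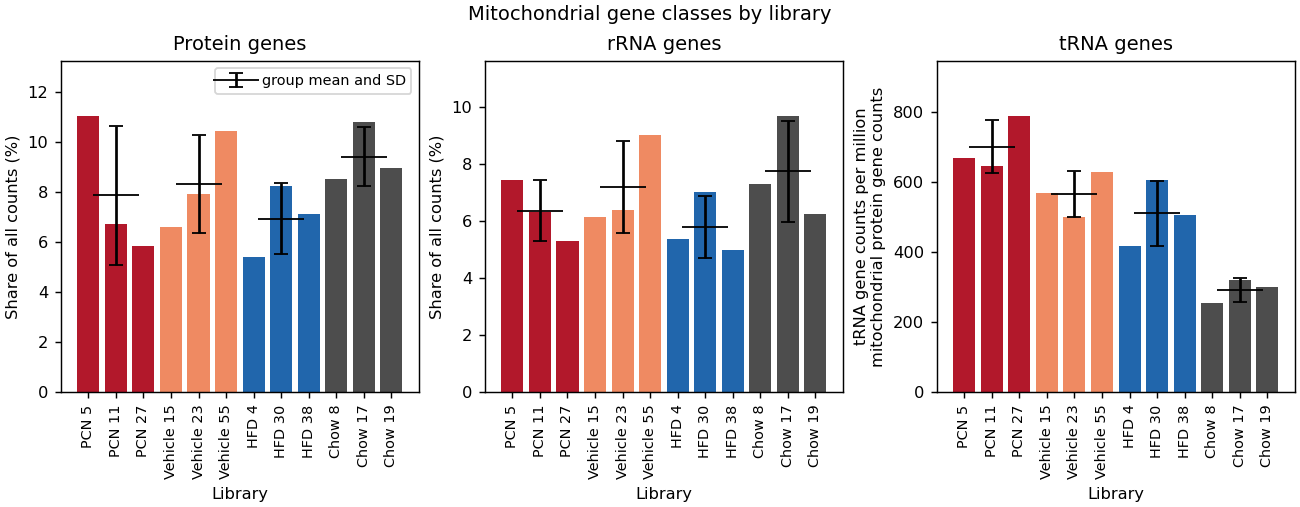
Bars give, for each of the 12 libraries, the share of all counts on mitochondrial protein genes (left) and rRNA genes (middle), in percent, and the tRNA gene counts per 1000000 mitochondrial protein gene counts (right), with group means and SD (n = 3) in black. Protein gene shares of all counts, without TMM scaling, lie lower in HFD than in Chow. The tRNA ratio, chosen after its values were seen, is lowest in the 3 Chow libraries.

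The PCN comparison asks what the pregnane X receptor agonist did to these transcripts in mice on the high-fat diet. No mitochondrial gene differed between PCN and Vehicle beyond the spread of the libraries. Of the 28 members 19 were tested, 0 passed in edgeR (lowest adjusted p = 0.998) or DESeq2, and 0 had an unadjusted p under 0.05 in either tool. Of all 12833 genes in edgeR, 2.82% had such a p and 0.00% passed. In DESeq2 such a p was found for 1.46% of genes, which were not filtered by expression. No member had groups that did not overlap, against 8.48% of all genes. The fitted values were 6 above 0 and 13 below, where 47.7% of all genes lay below, and ran between -0.58 ± 0.52 (mt-Tm) and 0.42 ± 0.41 (mt-Tq). The median was -0.07 for the 11 tested protein genes, beside 0.01 for all genes tested. The rRNA with the lowest p, mt-Rnr1, had 5440, 5498 and 4112 CPM in PCN 5, 11 and 27, against 5296, 5934 and 8868 CPM in Vehicle 15, 23 and 55 (-0.41 ± 0.28).

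In both injected groups 1 library stood above the others. The protein gene share was 11.0% in PCN 5, against 6.73% and 5.84% in PCN 11 and 27, and 10.4% in Vehicle 55, against 6.60% and 7.91% in Vehicle 15 and 23. PCN 5 and Vehicle 55 were also the libraries with the highest slow-fibre sums of their groups, 141 and 68.8 CPM, and the highest endothelial sums of their groups, 256.5 and 330.7 CPM. Their sums of skeletal muscle markers, 110479 and 119589 CPM, were the lowest of the 12 libraries. Markers of red blood cells summed to 215.4 CPM in Vehicle 55, against 45.2 and 74.8 CPM in Vehicle 15 and 23. The part of these differences in the shares was not tested. Without PCN 5 the median of the protein genes was -0.44. The Vehicle libraries were close to each other for mt-Nd6, with 125.2, 130.5 and 130.6 CPM in Vehicle 15, 23 and 55, against 202.6, 114.7 and 106.3 CPM in PCN 5, 11 and 27. The shares of the groups were 7.87 ± 2.78% in PCN and 8.31 ± 1.95% in Vehicle (SD, n = 3 each, exact permutation p = 0.8, adjusted 0.947).

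The injected groups were also set against the uninjected HFD group, a comparison in which the injection and the deposited table differ together and cannot be told apart. These fits joined the tables on 21976 shared genes and used all 12 libraries. They share the HFD libraries with each other and with the diet comparison. The tables share 24 members, and 20 were tested, mt-Atp8 among them. In Vehicle against HFD edgeR called 0 of the 20 and 0.00% of 13375 genes, while DESeq2 called 0 of 20 members, with no adjusted p for 7, and 213 genes. In PCN against HFD edgeR called 0 of 20 members but 4.14% of genes, 554 in all, and DESeq2 0 of 20, with no adjusted p for 4, and 1106 genes. At an unadjusted p under 0.05, edgeR gave 1 member higher, mt-Nd3, and 1 lower, mt-Nd5, in Vehicle against HFD, where all genes gave 6.26% and 6.51%. In PCN against HFD it gave 1 lower, mt-Tm, where all genes gave 10.9%. Fitted values were below 0 for 9 of 20 members in Vehicle and for 12 in PCN, against 50.1% and 49.4% of all genes.

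mt-Nd5, the complex I subunit whose gene lies ahead of mt-Cytb, was the largest of the well-counted differences. It had 2528, 2320 and 4193 CPM in Vehicle 15, 23 and 55, against 4745, 7949 and 5010 CPM in HFD 4, 30 and 38, without overlap, as for 11.0% of genes in that direction. The fitted change was -0.97 ± 0.44 (SE, adjusted p = 0.379 in edgeR). In PCN, with 5437, 2474 and 2381 CPM in libraries 5, 11 and 27, it was -0.78 ± 0.44 (adjusted p = 0.315), and PCN 5 lay within the HFD range. The other complex I genes of the high tier were mt-Nd2 (-0.42 ± 0.33 in Vehicle, -0.44 ± 0.33 in PCN), mt-Nd4 (-0.40 ± 0.33 and -0.47 ± 0.33), mt-Nd6 (-0.34 ± 0.25 and -0.20 ± 0.25) and mt-Nd1 (0.13 ± 0.26 and -0.08 ± 0.26). mt-Nd1 in PCN lay on the other side of 0, at 0.10, when library totals replaced TMM, a scaling under which the median of all genes was 0.18, and 0.16 in Vehicle against HFD.

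mt-Co1 and most of the low stretch leaned the other way. All 5 tested genes of the low stretch were fitted above 0 in Vehicle and 4 of 5 in PCN, where mt-Co2 was at -0.11 ± 0.28, or 0.07 on library totals. mt-Co1 was at 0.34 ± 0.28 in Vehicle and 0.26 ± 0.28 in PCN against HFD. mt-Nd3 was at 0.97 ± 0.41 in Vehicle (adjusted p = 0.344), with 1.33, 2.12 and 1.74 CPM in Vehicle 15, 23 and 55 above 0.808, 1.12 and 0.725 CPM in HFD 4, 30 and 38, as for 11.8% of genes in that direction. In PCN it was at 0.53 ± 0.42. mt-Co3, the third core subunit of complex IV, was at 0.39 ± 0.24 in PCN without overlap, as for 13.5% of genes in that direction, while mt-Atp8 was at 0.83 ± 0.71 and 0.73 ± 0.72 from 2 to 13 counts a library. mt-Tm, the tRNA for methionine, had 1.27, 0.379 and 0.743 CPM in PCN 5, 11 and 27, below 1.29, 2.80 and 1.56 CPM in HFD 4, 30 and 38, with PCN 5 and HFD 4 nearly equal, as for 12.9% of genes in that direction (-1.24 ± 0.49, adjusted p = 0.155), from 6 to 40 counts a library. mt-Tw was at 0.40 ± 0.32 in Vehicle and 0.57 ± 0.32 in PCN, and mt-Tt at 0.38 ± 0.31 and 0.36 ± 0.31.

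**Figure D4:**
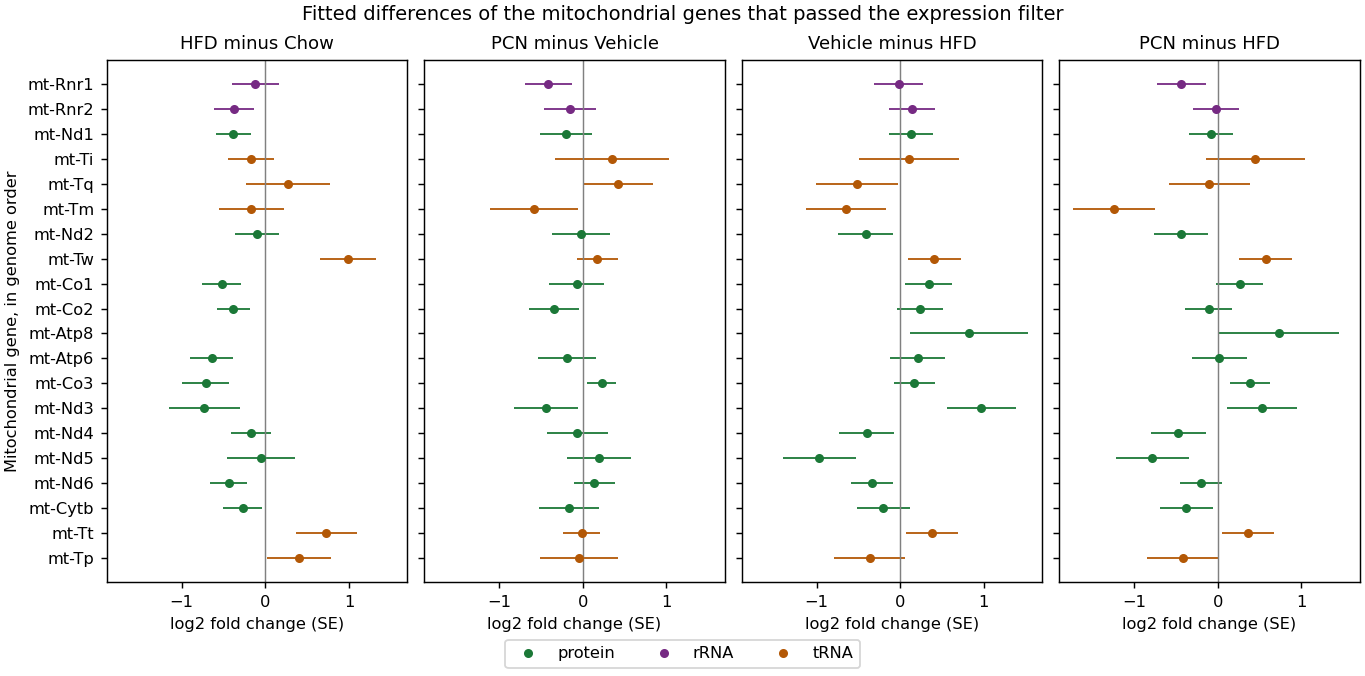
Fitted log2 fold changes with SE for each tested mitochondrial gene in genome order, in 4 panels from HFD minus Chow to PCN minus HFD, coloured by class. Protein genes lie below 0 and mt-Tw and mt-Tt above it in HFD minus Chow, while mt-Nd5 lies below 0 and mt-Co1 above it in both comparisons with uninjected HFD, and none passed the adjusted threshold.

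The balance between messenger RNAs also differed from library to library. Relative to mt-Co1, a ratio chosen after its values were seen and free of library scaling, mt-Nd5 counts were 8.99%, 5.78% and 6.98% in PCN 5, 11 and 27 and 6.28%, 5.18% and 6.98% in Vehicle 15, 23 and 55. They were 14.3%, 17.4% and 14.1% in HFD 4, 30 and 38, and 7.71%, 5.70% and 23.7% in Chow 8, 17 and 19. In this ratio the uninjected HFD libraries stood apart from every injected one, and Chow spanned both ranges. The share of all genes that would stand apart over mt-Co1 was not computed. mt-Co1 itself averaged 38191 CPM in HFD, below 45805 in PCN and 48383 in Vehicle, so ratios to it lean higher in HFD. In CPM, mt-Nd5 in HFD overlapped with PCN but not with Vehicle. The 9 markers of fibroblasts and their matrix also stood apart between injected and uninjected libraries, with summed levels of 351 to 587 CPM in PCN, 480 to 602 in Vehicle, 705 to 1269 in HFD and 707 to 1025 in Chow. Their part in this result and in the comparisons with uninjected HFD was not tested. Chow 19 had the highest ratio of all 12 and Chow 17 nearly the lowest, although both had high slow-fibre levels.

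mt-Nd2, mt-Nd4 and mt-Cytb behaved in the same manner. Over mt-Co1, mt-Nd4 was at 5.60% to 7.98% in PCN, 6.28% to 7.66% in Vehicle and 10.4% to 12.8% in HFD, with 7.82%, 6.57% and 14.1% in Chow 8, 17 and 19. mt-Cytb was at 11.8% to 15.1% in PCN, 13.0% to 15.5% in Vehicle and 19.4% to 22.3% in HFD, with 14.9%, 13.1% and 27.3% in Chow 8, 17 and 19. mt-Nd1, the first protein gene after the rRNAs, varied less, at 21.6% to 26.4% in PCN, 25.2% to 27.0% in Vehicle, 29.5% to 31.6% in HFD and 25.3% to 31.8% in Chow. In these ratios too, each HFD library exceeded each PCN and each Vehicle library. In CPM, without mt-Co1 as the denominator, HFD overlapped with PCN and with Vehicle for mt-Nd1, mt-Nd2, mt-Nd4 and mt-Cytb.

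**Figure D5:**
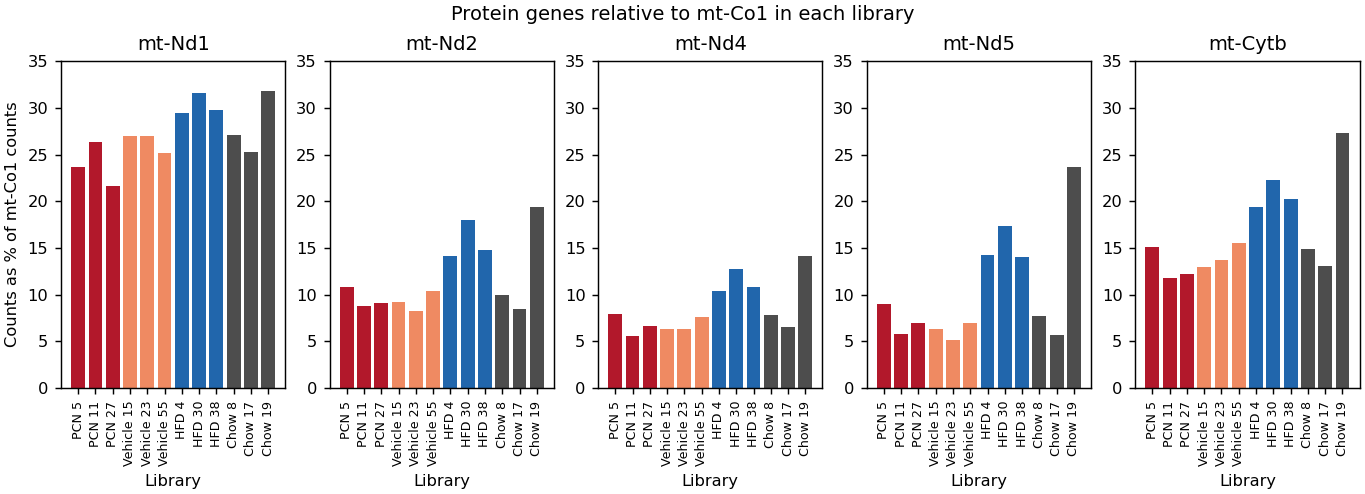
Counts of mt-Nd1, mt-Nd2, mt-Nd4, mt-Nd5 and mt-Cytb as a percentage of mt-Co1 counts in each of the 12 libraries, coloured by group. HFD and Chow 19 are the highest libraries in each panel, and mt-Nd5 spans the widest range, 5.18% to 23.7%.

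By complex, the same counts were set out as shares of the protein gene counts, which restates the contrast and adds no separate result. Complex IV, almost all of it mt-Co1, took 59.95% to 63.76% in PCN, 60.3% to 62.3% in Vehicle and 49.4% to 53.2% in HFD, with 59.6%, 62.7% and 46.1% in Chow 8, 17 and 19. Complex I took 28.4% to 31.0% in PCN, 29.2% to 30.4% in Vehicle, 36.5% to 39.6% in HFD and 29.0% to 41.3% in Chow. Complex V, encoded only in the low stretch, took 0.00622% to 0.0101% over the 12 libraries. How reads that match nuclear copies were counted is not stated. The part of the low-stretch genes in these shares is therefore uncertain, and the values are shares of counts only.

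The light strand was compared through mt-Nd6 against the heavy-strand protein genes. Its counts were 0.168 ± 0.0327% of theirs in Vehicle and 0.218 ± 0.0213% in HFD (SD, n = 3 each), without overlap (exact permutation p = 0.1, the smallest possible, adjusted 0.909). With mt-Co1 left out of the heavy-strand sum the libraries overlapped and the difference was -0.0142 percentage points (exact permutation p = 0.9). They were 0.190 ± 0.0178% in PCN and 0.227 ± 0.0536% in Chow, both overlapping with HFD. Strand was not stated for the counting, and mt-Nd6 overlaps mt-Nd5 by 14 bases, so reads of the opposite strand cannot be told apart in it.

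Across the 12 libraries the sums followed each other. The log2 of the summed protein genes correlated with that of the rRNAs at a Pearson r of 0.843 and a Spearman rho of 0.818 (100000-resample permutation p = 0.0005 and 0.00197, adjusted over 3 relations 0.0015 and 0.00591). Within the HFD and Chow libraries r was 0.83 and within PCN and Vehicle 0.872. Without Chow 17 and HFD 38, the farthest from the median of the rRNA sum, it was 0.84. In each relation the libraries left out were those farthest from the median of the measure set against the protein genes. With the mean of 78 nuclear genes of oxidative phosphorylation r was 0.766 and rho 0.748 (permutation p = 0.00305 and 0.00699, adjusted 0.00458 and 0.0105). Within the tables r was 0.703 and 0.944, and without Chow 17 and PCN 27 it was 0.557. With the mean of 45 nuclear genes for mitochondrial RNA synthesis and handling, described next, r was 0.563 and rho 0.629 (permutation p = 0.0572 and 0.0325, adjusted 0.0572 and 0.0325). For that relation r within the tables was 0.838 and 0.578, and without HFD 4 and Chow 17 it was 0.311. Leaving out the ends of a measure narrows its range, which can lower r by itself, so the drop does not single out those libraries. With the libraries scaled by nuclear genes alone, r was 0.413 and rho 0.545 (permutation p = 0.183 and 0.0709), so rho no longer passed, while r had not passed under either scaling. These points share a library and its scaling. PCN 5, Vehicle 55, Chow 17 and Chow 19, the libraries with the highest slow-fibre sums, also had the highest protein gene sums. For the other measures Chow 19 was not among the highest libraries. The part of the slow-fibre level was not tested.

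The nuclear genes that make and process these RNAs were described by a list of 47, of which 46 were in both tables. In HFD against Chow, 44 were tested, 0 passed and 34 were fitted below 0 (median -0.11), where 49.9% of all genes lay below 0. At an unadjusted p under 0.05 in edgeR 1 was lower and 0 were higher, where all genes gave 3.92% and 3.78%. Polrmt, the mitochondrial RNA polymerase, was at 0.18 ± 0.14, Tfam, which packs and bends the DNA, at -0.11 ± 0.15, Tfb2m, which melts promoters, at -0.04 ± 0.12 and Tefm, an elongation factor, at -0.35 ± 0.24. The partners Lrpprc and Slirp, which stabilise the messenger RNAs, were at -0.08 ± 0.14 and -0.26 ± 0.24. The lowest p values belonged to Pnpt1, of the RNA degradation complex (-0.40 ± 0.15, adjusted p = 0.635), Fastkd2, Hsd17b10 and Fastk.

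In PCN against Vehicle 0 of 45 passed, and the lowest p belonged to Mterf4, Fastkd1, Ptcd2 and Ssbp1, all above 0 (0.26 to 0.45). Polrmt was at -0.05 ± 0.14, Tfam at -0.22 ± 0.16, Tfb2m at 0.15 ± 0.17, Tefm at 0.30 ± 0.23, Lrpprc at 0.07 ± 0.21 and Slirp at -0.30 ± 0.21. In Vehicle against HFD 0 of 45 passed, led by Taco1, Hsd17b10, Mterf4 and Fastkd2, and the 6 factors above lay between -0.17 ± 0.14 (Polrmt) and 0.33 ± 0.23 (Slirp). In PCN against HFD they lay between -0.22 ± 0.14 (Polrmt) and 0.44 ± 0.25 (Tefm), with Tfb2m at 0.35 ± 0.14.

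In PCN against HFD 2 of 45 passed, 1 in each direction, where 4.14% of all genes did. Taco1, which activates translation of the mt-Co1 messenger RNA, had 21.6, 18.2 and 14.3 CPM in PCN 5, 11 and 27, against 28.4, 29.1 and 35.3 CPM in HFD 4, 30 and 38 (-0.78 ± 0.19, edgeR adjusted p = 0.0343). In Vehicle it had 18.65, 17.63 and 26.03 CPM in libraries 15, 23 and 55 (-0.58 ± 0.18 against HFD, adjusted p = 0.237). Hsd17b10, a subunit of the mitochondrial RNase P that cuts tRNA 5′ ends and also a dehydrogenase, had 34.8, 30.5 and 31.6 CPM in PCN 5, 11 and 27, against 19.9, 20.9 and 23.1 CPM in HFD 4, 30 and 38 (0.60 ± 0.15, adjusted p = 0.042). In Vehicle it was at 0.48 ± 0.15 (adjusted p = 0.24).

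Neither call held on the 6 libraries of PCN and HFD alone (adjusted p = 0.0552 for Taco1 and 0.0542 for Hsd17b10), nor without PCN 27 (0.113 and 0.103), HFD 4 (0.0884 and 0.143), HFD 30 (0.101 and 0.151) or HFD 38 (0.113 and 0.0935). Without PCN 5 that of Hsd17b10 ended too (0.0936), and on library totals that of Taco1 (0.0799). Ssbp1, the single-strand binding protein (0.56 ± 0.18), and Prorp, the nuclease subunit of RNase P (0.52 ± 0.19), were next and did not pass. Of the 78 nuclear oxidative phosphorylation genes 1 passed, Atp5g2, an ATP synthase c-ring gene (0.77 ± 0.16, adjusted p = 0.0224), whose call ended without PCN 27, HFD 4, HFD 30 or HFD 38 (adjusted p 0.0595 to 0.0909).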

How the data were processed

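RNA from 12 muscle libraries was sequenced, and the authors deposited whole-number counts per gene, not normalised, in 2 tables, beside log2 fold changes and p-values of their own DESeq2 fits. Per the submitters' processing notes, HISAT2, HTSeq and DESeq2 were used, with builds GRCm38 and mm10, without the strand or multi-mapping settings. Of the deposited DESeq2 columns 1 gene is quoted. From the counts, edgeR 4.0.16 (R 4.3.3; TMM, minimum count 10, robust quasi-likelihood test) was fitted over all genes, on each table's 6 libraries or, between tables, on all 12. A log2 fold change takes the group named first over the other, and its SE is the fold change over the square root of F. Shares and ratios were compared by exact permutation. Copies were found with BLAST 2.17.0 (at least 200 bases and 95% identity). Every protein and rRNA gene, the 6 highest tRNA genes, 6 fixed expression factors up to 4 others by p, and copies that passed the filter are named. Members and lists were chosen with earlier results of these data known. Both tools were tested on simulated counts for each comparison but PCN against HFD. The same spread was set for every gene, so the members' own spread was not covered. Alternatives were DESeq2 1.42.0, other scalings, no filter, a slow-fibre covariate and left-out libraries.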

Additional observations from a re-analysis of the deposited data

How the results depend on the processing

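Whether a member passed the adjusted threshold changed in 2 cases over all alternatives run, mt-Tw and mt-Co3 in HFD against Chow with no filter on low counts. Counts of 0 to 40 per library, as in mt-Nd3, mt-Nd4l, mt-Atp8 and most tRNA genes, limit the depth behind those genes. The smallest p of the exact tests, 0.1, is above the threshold. No paired analysis was possible because the library numbers of the 4 groups do not recur between groups. The causes of the changes below were not tested.

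The number of genes of any kind past the threshold in HFD against Chow was 0, but 40 with DESeq2, 237 with no filter, of which 2 were members, and 0 to 219 without 1 library (219 without Chow 19 and 7 without Chow 8). In PCN against Vehicle it was 0, and 21 with no filter. In Vehicle against HFD it was 0, but 213 with DESeq2, 2 with no filter and 193 on the 6 libraries alone. In PCN against HFD it was 554, but 1106 with DESeq2, 931 on library totals, 1014 with the slow-fibre covariate and 6 to 827 without 1 library, the lowest being 6 without HFD 30, 21 without HFD 38, 27 without HFD 4 and 73 without PCN 27.

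The median of the tested members in HFD against Chow was -0.17, and -0.512 to -0.0752 without 1 library, the lowest without HFD 30, but 0.0702 with the slow-fibre covariate. That of the protein genes in PCN against Vehicle was -0.07, and -0.441 to 0.101 without 1 library, the lowest without PCN 5. Leaving out 1 library moved the difference in protein gene share between -2.029 and 0.6115 percentage points in PCN against Vehicle and between -0.6438 and 1.951 in PCN against HFD. The rRNA share difference lay between -1.368 and 0.09984, and the tRNA share difference between -0.0002831 and 0.001589, in PCN against Vehicle. In HFD against Chow the rRNA share difference lay between -2.694 and -0.9752, the smallest without Chow 17. The difference in the ratio of rRNA to protein gene counts lay between -0.04086 and 0.1033 in HFD against Chow, -0.07626 and 0.05625 in PCN against Vehicle, -0.05306 and 0.09114 in Vehicle against HFD, and -0.07961 and 0.076 in PCN against HFD. With mt-Co1 left out of the protein sum that difference was -0.1802 in HFD against Chow, 0.4881 in Vehicle against HFD (0.01975 with it) and 0.4831 in PCN against HFD. The mt-Nd6 percentage differed by -0.02842 to 0.02145 in HFD against Chow without 1 library, and, without mt-Co1, by -0.06416 there, where the groups then did not overlap, by -0.01422 in Vehicle against HFD and by 0.05104 in PCN against HFD.

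With the slow-fibre covariate, HFD against Chow gave 0.444 for mt-Ti, 0.0702 for mt-Tm, 0.320 for mt-Nd2, 0.201 for mt-Nd4, 0.661 for mt-Nd5 and 0.126 for mt-Cytb, and Vehicle against HFD gave -0.0593 for mt-Ti, all on the log2 scale with the sign turned. Without Chow 17 and Chow 19, a choice made after the data were seen, HFD against Chow gave 0.312 for mt-Ti, 0.204 for mt-Nd2, 0.0938 for mt-Nd4, 0.544 for mt-Nd5 and 0.0197 for mt-Cytb. Scaled by nuclear genes alone, mt-Rnr1 was at 0.00485 in Vehicle against HFD and mt-Rnr2 at 0.0133 in PCN against HFD. On library totals, mt-Rnr1 was at 0.172 in Vehicle against HFD, and mt-Rnr2 at 0.170, mt-Nd1 at 0.0971, mt-Tq at 0.0783 and mt-Co2 at 0.0700 in PCN against HFD. In HFD against Chow, leaving out 1 library at a time gave log2 fold changes of mt-Rnr1 -0.512 to 0.0898, mt-Ti -0.36 to 0.227, mt-Tq -0.36 to 0.602, mt-Tm -0.554 to 0.188, mt-Nd2 -0.386 to 0.132, mt-Nd4 -0.434 to 0.0224 and mt-Nd5 -0.325 to 0.567. In PCN against Vehicle, leaving out 1 library at a time gave log2 fold changes of mt-Rnr2 -0.261 to 0.0276, mt-Nd1 -0.441 to 0.0182, mt-Ti -0.139 to 1.4, mt-Nd2 -0.403 to 0.263, mt-Tw -0.111 to 0.348, mt-Co1 -0.33 to 0.1 and mt-Atp6 -0.717 to 0.053. In the same comparison, leaving out 1 library at a time gave log2 fold changes of mt-Nd4 -0.511 to 0.231, mt-Nd5 -0.311 to 0.492, mt-Nd6 -0.22 to 0.307, mt-Cytb -0.578 to 0.101, mt-Tt -0.205 to 0.103 and mt-Tp -0.408 to 0.369. In Vehicle against HFD, leaving out 1 library at a time gave log2 fold changes of mt-Rnr1 -0.273 to 0.375, mt-Rnr2 -0.0583 to 0.316, mt-Nd1 -0.0192 to 0.315, mt-Ti -0.955 to 0.483, mt-Tq -1.02 to 0.12, mt-Co3 -0.0267 to 0.294 and mt-Cytb -0.486 to 0.0139. In PCN against HFD, leaving out 1 library at a time gave log2 fold changes of mt-Rnr2 -0.178 to 0.155, mt-Nd1 -0.329 to 0.126, mt-Ti -0.0465 to 0.709, mt-Tq -0.431 to 0.539, mt-Co1 -0.00277 to 0.422, mt-Co2 -0.436 to 0.136, mt-Atp6 -0.521 to 0.243 and mt-Nd6 -0.57 to 0.00169.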
